A study of Mus musculus with 26 samples.

Results

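This comparison concerns the ascending aorta of male Fbn1 C1041G/+ mice that received an antisense oligonucleotide (ASO): 5 libraries from mice given AGT-ASO (numbers 14, 15, 18, 19 and 20) were set against 5 from mice given Control-ASO (numbers 8, 12, 13, 16 and 17). The 10 libraries were chosen by their treatment label, out of 26 in the series, and gene expression was compared across all genes. Every mouse in both ASO groups carried the C1041G allele of Fbn1, the gene for fibrillin-1, on 1 chromosome, so no wild-type mouse received an oligonucleotide. The other 16 libraries came from untreated mice. Of these, 4 mutant (C1041G/+) and 4 wild-type (WT) ascending libraries are used below to show what the mutation itself changed. The 8 descending libraries entered only the shared count filter, the scaling and the estimate of spread. Age, dose and length of treatment are not given in the labels, and nothing states which libraries were collected or prepared together. Each ASO library is taken as 1 mouse, and p-values measure the spread between libraries. Untreated ascending and descending libraries share replicate numbers. If those numbers name mice, each untreated mouse gave both regions, and the main genotype fit did not allow for that.

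Angiotensinogen, the product of Agt, is made mainly in the liver and is cut by renin and then by angiotensin-converting enzyme to angiotensin II. Angiotensin II acts on the smooth muscle and adventitial cells of the aorta mainly through type 1 receptors, which couple to calcium release, to the ERK kinase cascade and to the production of matrix and growth factors. Fbn1 C1041G/+ mice model Marfan syndrome, in which the ascending aorta widens, and an oligonucleotide against Agt mRNA is meant to lower the precursor of angiotensin II. The study's title names inhibition of angiotensinogen synthesis as the question that the ASO arm addresses.

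The target gene was measured first. Agt (GRCm38, chromosome 8, 124556534 to 124569706) stood at 0.0961, 1.467, 0.109, 0.208 and 0.112 CPM (counts per 1000000 counts of the library) in AGT-ASO libraries 14, 15, 18, 19 and 20, and at 0.540, 0.301, 0.340, 0.787 and 0.454 CPM in Control-ASO libraries 8, 12, 13, 16 and 17. In 4 of the 5 AGT-ASO libraries Agt lay below every Control-ASO library, and library 15 lay above them all. The means were 0.399 ± 0.599 CPM with AGT-ASO, against 0.484 ± 0.193 CPM with Control-ASO (SD, n = 5 each; exact two-sided permutation test, p = 0.857). Without library 15, left out after its value was seen, the difference was -0.353 CPM, and that choice leaves groups that do not overlap. These levels are near the detection limit and the count filter removed Agt. They describe aortic tissue only, and liver RNA was not analysed here. Fbn1 (chromosome 2, 125300594 to 125507993) averaged 260 ± 22.2 CPM with AGT-ASO, against 276 ± 37.1 CPM with Control-ASO (log2 fold change -0.08 ± 0.09 SE; edgeR quasi-likelihood test, adjusted p = 0.75).

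The receptor genes gave no call. Agtr1a, the main type 1 receptor gene of mice, averaged 2.83 ± 0.537 CPM with AGT-ASO, against 3.32 ± 0.370 CPM with Control-ASO (log2 fold change -0.23 ± 0.21 SE; edgeR adjusted p = 0.70). Agtr1b, its paralogue, stood at 0.338 ± 0.173 CPM with AGT-ASO, against 0.469 ± 0.319 CPM with Control-ASO (exact permutation test, n = 5 each, p = 0.429). Agtr2, the type 2 receptor gene, stood at 0.107 ± 0.216 CPM with AGT-ASO, against 0.199 ± 0.145 CPM with Control-ASO (exact permutation test, n = 5 each, p = 0.476). Library 18 held 0.491 CPM of Agtr2, while the other 4 AGT-ASO libraries held 0 to 0.0416 CPM. Among 17 tested genes of the renin-angiotensin system, edgeR called none and DESeq2 called none. At unadjusted p under 0.05, 1 was higher, Agtrap, which encodes a protein that binds the type 1 receptor, and 2 were lower, the mast cell proteases Mcpt4 and Cma1. Agtrap averaged 58.5 ± 5.51 CPM with AGT-ASO, against 49.2 ± 7.72 CPM with Control-ASO (log2 fold change 0.25 ± 0.10 SE, edgeR adjusted p = 0.32).

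AGT-ASO libraries held 17355174 to 23544005 counts and Control-ASO libraries 17367021 to 28554356. The tissue label was checked with 40 contractile smooth muscle genes, none of which was at 0 in any library and which summed to 53254 to 67193 CPM in AGT-ASO libraries and 44038 to 68064 CPM in Control-ASO libraries. Heart muscle RNA and mitochondrial RNA were lower with AGT-ASO: the 37 heart muscle genes summed to 1172 to 1904 CPM in AGT-ASO libraries and 1727 to 3300 CPM in Control-ASO libraries, with no gene of the list at 0 in every library. The 13 mitochondrially encoded mRNAs made up 4.89 ± 1.21% of AGT-ASO counts and 7.76 ± 2.26% of Control-ASO counts (SD, n = 5 each; exact permutation test, p = 0.0397, and 0.0238 to 0.0952 when any 1 library was left out). Stress programs were highest in 2 Control-ASO libraries: library 8 had a heat shock score of 8.29, against 6.74 to 6.93 in the other Control-ASO libraries, and library 16 had an interferon score of 3.97, against 2.71 to 3.29 in the other Control-ASO libraries. A score is the mean of log2(CPM + 0.5) over a list. In bulk tissue, fewer cells of a type and less RNA per cell cannot be told apart.

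**Figure D1:**
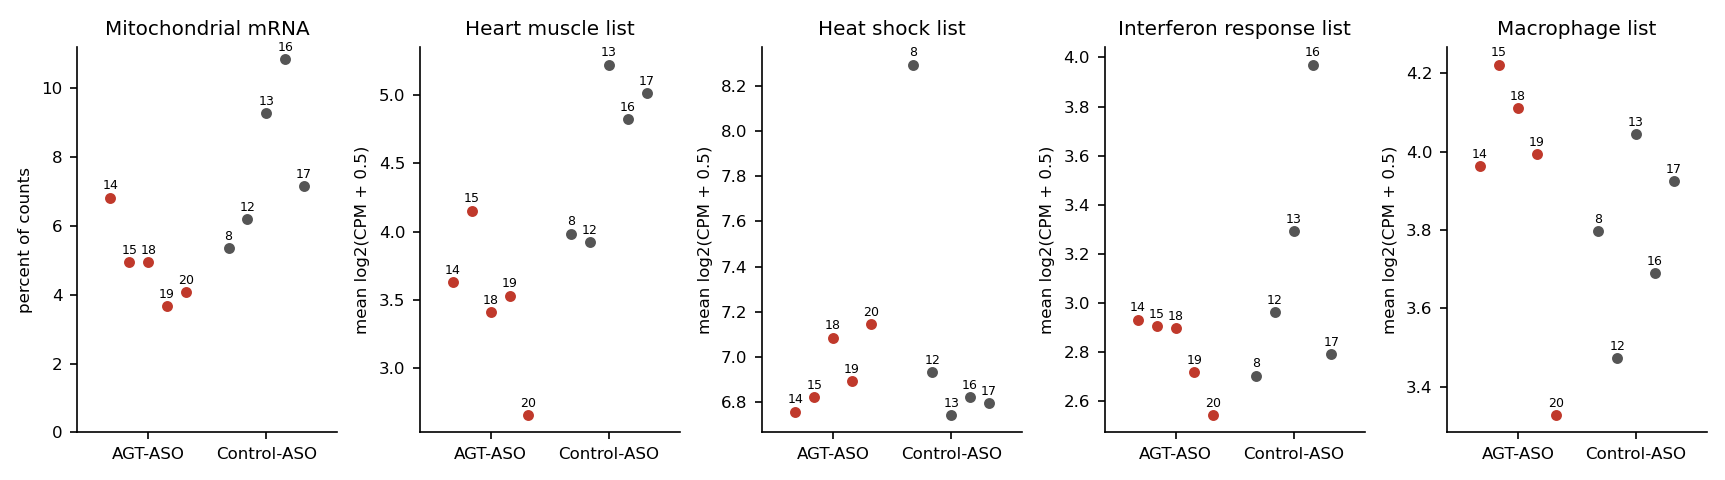
Mitochondrial share of counts and the scores of 4 gene lists, mean log2(CPM + 0.5), in each AGT-ASO (left, red) and Control-ASO (right, grey) library; the small numbers name the library. Mitochondrial shares ran from 3.66 to 6.81% with AGT-ASO and from 5.34 to 10.83% with Control-ASO, and Control-ASO library 8 stood at a heat shock score of 8.29.

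Across 14981 tested genes, 10 passed the threshold of adjusted p under 0.05, which is 0.0668% of the genes (edgeR quasi-likelihood test with Benjamini-Hochberg adjustment). Trem2 and Gm830 rose with AGT-ASO (0.0134% of tested genes), and Mgl2, Adamtsl2, Dock9, Vegfa, Cp, Tspan9, Spry4 and Sorbs2 fell (0.0534%). The changes were mostly below 2-fold: only Trem2 and Mgl2 passed that size. DESeq2 called far more of the same 14981 genes, 119 higher and 170 lower. Its counts for single lists are to be read beside these. In all 10, no AGT-ASO library overlapped a Control-ASO library; over all genes, groups did not overlap in 1.31% on the higher side and 1.14% on the lower side. The smallest adjusted p was 0.0378, and the calls depended on single libraries. Leaving out AGT-ASO library 15, 18 or 19 or Control-ASO library 12, 13 or 16 left 0 calls in edgeR (1480 to 1961 genes at unadjusted p under 0.05), and leaving out Control-ASO library 17 left 1 call. Without AGT-ASO library 20 there were 9 calls, without AGT-ASO library 14 there were 40, and without Control-ASO library 8 there were 180. All 10 genes kept their direction in every alternative fit. As their groups did not overlap, leaving out libraries could hardly turn a direction, and the other fits reused the same libraries. With the heart muscle score added to the model 5 genes were called, of which Trem2 was the only one of the 10. That score itself was mostly lower with AGT-ASO, so such a fit cannot fully separate it from treatment.

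**Figure D2:**
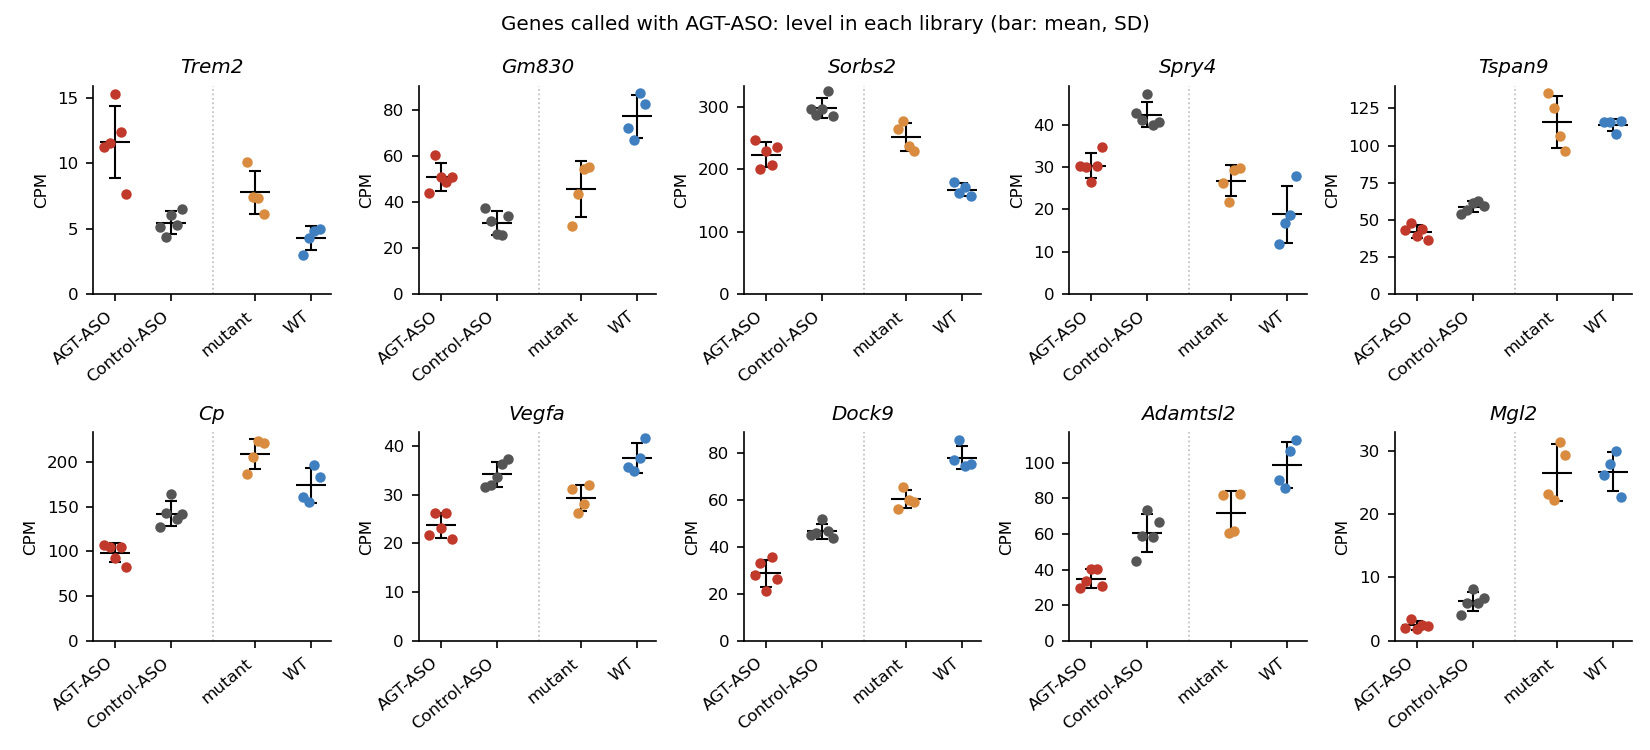
Level of each of the 10 called genes in CPM (linear axis from 0), 1 dot per library, with the mean and SD. Left of the dotted line stand the AGT-ASO and Control-ASO libraries (n = 5 each), right of it the untreated mutant and WT ascending libraries (n = 4 each), which were scaled separately; in each panel the AGT-ASO dots lie all above or all below the Control-ASO dots.

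Of the 10 called genes, a pair of macrophage genes had the largest fold changes, in opposite directions. Trem2 (chromosome 17, 48346401 to 48354147), a lipid-sensing receptor of macrophages and microglia, stood at 11.25, 11.6, 15.3, 12.4 and 7.65 CPM in AGT-ASO libraries 14, 15, 18, 19 and 20, against 5.15, 4.39, 6.07, 5.26 and 6.55 CPM in Control-ASO libraries 8, 12, 13, 16 and 17. Every AGT-ASO library was higher than every Control-ASO library, with AGT-ASO library 20 nearest to them. The means were 11.6 ± 2.74 CPM with AGT-ASO, against 5.48 ± 0.845 CPM with Control-ASO (SD, n = 5 each; log2 fold change 1.09 ± 0.18 SE, edgeR adjusted p = 0.038). With the heart muscle score added to the model the log2 fold change of Trem2 was 1.47 (edgeR adjusted p = 0.037). Mgl2 (chromosome 11, 70130329 to 70137550) encodes a galactose-binding lectin found on a subset of macrophages and dendritic cells. Its levels were 2.02, 3.498, 1.86, 2.46 and 2.30 CPM in the AGT-ASO libraries and 4.15, 6.02, 8.23, 6.01 and 6.80 CPM in the Control-ASO libraries, in the same order. Mgl2 thus averaged 2.43 ± 0.643 CPM with AGT-ASO, against 6.24 ± 1.48 CPM with Control-ASO (log2 fold change -1.36 ± 0.23 SE, edgeR adjusted p = 0.038; 0.41 with the heart muscle covariate). Both ASO groups lay far below the 26.5 ± 4.52 CPM of untreated mutant and 26.7 ± 3.04 CPM of untreated WT ascending aorta, libraries that were scaled apart and differ in treatment and experiment.

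The macrophage list held genes on both sides. Mgl2, the called fall given above, is not among its 24 genes. All 24 were tested, and Trem2 was the only call. Of them, 16 had a positive and 8 a negative log2 fold change, with a median of 0.24 against -0.00587 over all genes. At unadjusted p under 0.05, 7 were higher and 2 were lower, while over all genes 5.92% were higher and 6.80% lower by that rule. DESeq2 called 3 of the list higher and 2 lower. Cd68, a lysosomal protein of macrophages, stood at 18.2, 21.04, 21.4, 19.7 and 9.56 CPM in AGT-ASO libraries 14, 15, 18, 19 and 20, against 10.7, 5.46, 8.85, 8.97 and 10.03 CPM in the Control-ASO libraries (log2 fold change 1.03 ± 0.22 SE, edgeR adjusted p = 0.10). Its groups overlapped only through library 20, the AGT-ASO library that also had the lowest macrophage score, 3.33, against 3.96 to 4.22 in the other 4. Genes on the lower side were Ccr2, the receptor that brings monocytes into tissue, and Lyve1, a hyaluronan receptor of resident vascular macrophages and lymphatic vessels. Ccr2 averaged 4.10 ± 0.317 CPM with AGT-ASO, against 7.83 ± 3.62 CPM with Control-ASO (log2 fold change -0.92 ± 0.26 SE, edgeR adjusted p = 0.18). Lyve1 averaged 10.1 ± 4.29 CPM with AGT-ASO, against 19.1 ± 4.997 CPM with Control-ASO (log2 fold change -0.91 ± 0.27 SE, edgeR adjusted p = 0.23). The summed level of the list was 1455 to 1861 CPM in AGT-ASO libraries and 1328 to 1602 CPM in Control-ASO libraries. Leaving out Control-ASO libraries 8 and 16 together, a fit chosen after seeing the data, left no higher call in the list and 1 lower call in edgeR, with 4 higher and 2 lower at unadjusted p under 0.05. Adding the heart muscle covariate left 21 of the 24 positive, with a median of 0.63; 2 were called higher, and at unadjusted p under 0.05, 12 were higher and none was lower. The median was 0.12 without AGT-ASO library 15 and 0.14 without Control-ASO library 12.

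Mast cell transcripts were few and lower on average with AGT-ASO. Of 18 neutrophil and mast cell genes, 7 passed the count filter; edgeR called none, DESeq2 called 1 lower, and 4 were lower at unadjusted p under 0.05. Mcpt4, a mast cell chymase, stood at 2.69, 3.33, 2.40, 4.21 and 0.337 CPM in AGT-ASO libraries 14, 15, 18, 19 and 20, against 4.98, 15.8, 19.4, 7.54 and 5.44 CPM in Control-ASO libraries 8, 12, 13, 16 and 17. The groups did not overlap, but the Control-ASO libraries were widely spread (log2 fold change -2.01 ± 0.58 SE, edgeR adjusted p = 0.23). Cma1, the chymase that can convert angiotensin I to angiotensin II, averaged 1.77 ± 1.15 CPM with AGT-ASO, against 5.94 ± 4.85 CPM with Control-ASO (log2 fold change -1.71 ± 0.71 SE, edgeR adjusted p = 0.36). Hdc, which makes histamine, averaged 1.01 ± 0.271 CPM with AGT-ASO, against 2.45 ± 1.04 CPM with Control-ASO (log2 fold change -1.26 ± 0.36 SE, edgeR adjusted p = 0.18). Kit, the mast cell growth factor receptor, had a log2 fold change of -0.64 ± 0.29 SE (edgeR adjusted p = 0.38). The neutrophil genes Ly6g, Retnlg and Cxcr2 were at 0 in all 10 libraries. None of the 7 genes reached an unadjusted p under 0.05 with the heart muscle covariate, and their median moved to -0.56, against -1.31 without it.

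Growth factor and ERK feedback genes held 2 of the 8 falls. Vegfa (chromosome 17, 46016993 to 46032369), the main angiogenic growth factor, stood at 21.7, 26.2, 23.1, 26.3 and 20.97 CPM in AGT-ASO libraries 14, 15, 18, 19 and 20, against 31.5, 32.0, 33.6, 36.3 and 37.4 CPM in the Control-ASO libraries. Every AGT-ASO library was lower, and the means were 23.7 ± 2.49 CPM with AGT-ASO, against 34.2 ± 2.59 CPM with Control-ASO (log2 fold change -0.53 ± 0.09 SE, edgeR adjusted p = 0.038). Spry4 (chromosome 18, 38586247 to 38601415) encodes an inhibitor that ERK signalling induces and that damps receptor tyrosine kinases. It stood at 30.3, 29.96, 26.5, 30.2 and 34.7 CPM in the AGT-ASO libraries, against 42.8, 41.0, 47.3, 39.9 and 40.6 CPM in the Control-ASO libraries. Spry4 levels again did not overlap (log2 fold change -0.48 ± 0.08 SE, edgeR adjusted p = 0.038). With the heart muscle covariate the adjusted p was 0.46 for Vegfa and 0.16 for Spry4, with log2 fold changes of -0.35 and -0.51.

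Most of the list lay on the same side. Of 35 tested growth factor and ERK feedback genes, Vegfa and Spry4 were called, none was called higher, 30 had a negative log2 fold change and the median was -0.23. At unadjusted p under 0.05, 15 were lower and none was higher, and in 8 the groups did not overlap, all on the lower side. Over all tested genes, 6.80% were lower and 5.92% higher at that p, and groups did not overlap in 1.14% on the lower side and 1.31% on the higher side. Like the other lists, this one was chosen with earlier results of these data known, so the shares are no independent test. DESeq2 called 7 of the list lower and none higher, beside 170 lower and 119 higher of all 14981 genes. The list's score was 4.62 to 4.77 in AGT-ASO libraries and 4.89 to 4.95 in Control-ASO libraries. Vegfd, a growth factor of lymphatic vessels, averaged 21.1 ± 4.35 CPM with AGT-ASO, against 31.3 ± 3.28 CPM with Control-ASO (log2 fold change -0.57 ± 0.13 SE, edgeR adjusted p = 0.10). Hbegf, an EGF receptor ligand that angiotensin II is known to release, averaged 35.4 ± 3.96 CPM with AGT-ASO, against 53.4 ± 12.3 CPM with Control-ASO (log2 fold change -0.60 ± 0.14 SE, edgeR adjusted p = 0.12). The groups of Fgf7, Dusp5, Spry1 and Spred1 also did not overlap. Without Control-ASO libraries 8 and 16 edgeR again called 2 of the list lower, and 14 were lower and none higher at unadjusted p under 0.05; with the heart muscle covariate 1 was called lower and 12 were lower at unadjusted p under 0.05.

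Markers of several other cell types lay on the same side as these genes. Of 25 endothelial genes 24 had a negative log2 fold change (median -0.39, 3 lower and none higher at unadjusted p under 0.05), and they summed to 1264 to 1704 CPM in AGT-ASO libraries and 1535 to 1765 CPM in Control-ASO libraries. Of 17 white adipocyte genes 16 were negative (median -0.64, 5 lower and 1 higher by that rule), summing to 756.1 to 1373 CPM with AGT-ASO, against 862.6 to 1340 CPM with Control-ASO. All 16 mesothelial genes were negative (median -0.25, 1 lower), at 439 to 1084 CPM with AGT-ASO, against 645 to 812.7 CPM with Control-ASO. Of 17 tested Schwann cell and melanocyte genes 13 were negative (median -0.50, 7 lower and 1 higher), and the whole list summed to 306.2 to 372.7 CPM with AGT-ASO, against 289.9 to 390.5 CPM with Control-ASO. Red blood cell genes lay on the other side: all 5 that were tested had a positive log2 fold change (median 1.25, 2 higher), and the list summed to 32.65 to 194.3 CPM with AGT-ASO, against 25.42 to 79.78 CPM with Control-ASO. edgeR called no gene of these 5 lists, the summed levels overlapped in each, and no gene of them was at 0 in every library. Their part in the growth factor and smooth muscle differences was not tested.

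**Figure D3:**
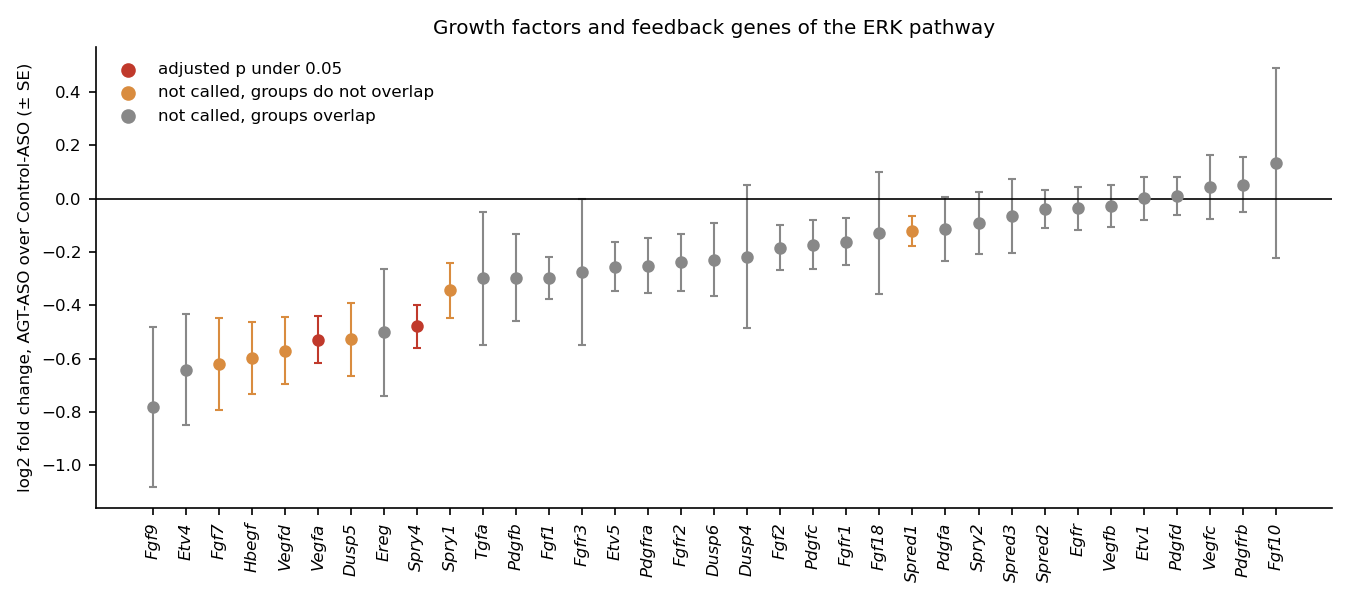
The log2 fold change of AGT-ASO over Control-ASO with its SE for each of 35 growth factor and ERK feedback genes, ordered by size. Red marks the 2 called genes, Vegfa and Spry4, orange the genes that were not called but whose groups do not overlap, and grey the rest; 30 of the 35 lie below 0.

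Immediate early genes, which ERK and calcium signals switch on within minutes, gave no edgeR call among 31 tested. At unadjusted p under 0.05, 5 were lower and none was higher; DESeq2 called 3 lower. Egr3, an ERK-induced transcription factor, stood at 18.3, 18.6, 19, 22.6 and 22.5 CPM in AGT-ASO libraries 14, 15, 18, 19 and 20, against 39.3, 32.1, 32.1, 23.4 and 25.5 CPM in the Control-ASO libraries (log2 fold change -0.59 ± 0.13 SE, edgeR adjusted p = 0.10). Dusp5, a phosphatase that ERK induces and that switches ERK off, averaged 9.54 ± 1.56 CPM with AGT-ASO, against 13.8 ± 1.78 CPM with Control-ASO (log2 fold change -0.53 ± 0.14 SE, edgeR adjusted p = 0.15). Klf2, a transcription factor that flow induces in endothelium, had a log2 fold change of -0.45 ± 0.10 SE (edgeR adjusted p = 0.11). Of the 31 genes, 20 had a negative and 11 a positive log2 fold change. The median of the list was -0.21, and -0.03 without Control-ASO library 8. It was -0.37 with the heart muscle covariate, with 25 of 31 negative and 10 lower at unadjusted p under 0.05.

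The angiotensin II response list, 25 tested genes known to be induced in vascular cells, also gave no edgeR call. It had 20 negative and 5 positive log2 fold changes and a median of -0.37, and DESeq2 called 1 higher and none lower. Library 8 weighed on it: its score was 5.75, against 4.77 to 5.03 in the other Control-ASO libraries and 4.55 to 4.89 in AGT-ASO libraries, and without library 8 the median was -0.17. The covariate for heart muscle gave a median of -0.55, and 11 were lower and 2 higher at unadjusted p under 0.05, against 4 lower and 1 higher without it. Ccn2, connective tissue growth factor, shows this. It stood at 970, 551, 750, 980 and 987 CPM in AGT-ASO libraries 14, 15, 18, 19 and 20, against 4070, 1378, 1222, 1306 and 1024 CPM in Control-ASO libraries 8, 12, 13, 16 and 17. The groups did not overlap even among the other Control-ASO libraries, yet the spread was wide (log2 fold change -1.09 ± 0.41 SE, edgeR adjusted p = 0.34). Rgs2, which shortens signalling by the type 1 receptor, was the gene with the smallest p and lay on the higher side, at 17.5 ± 2.99 CPM with AGT-ASO, against 11.8 ± 2.31 CPM with Control-ASO (log2 fold change 0.56 ± 0.15 SE, edgeR adjusted p = 0.15). Klf4, a regulator of smooth muscle state, had a log2 fold change of -0.37 ± 0.12 SE (edgeR adjusted p = 0.25). Has2, a hyaluronan synthase, had one of -1.17 ± 0.40 SE (edgeR adjusted p = 0.25), where AGT-ASO library 15 held 1.69 CPM and the rest of its group 0.546 to 0.583 CPM.

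Adamtsl2 was the only call among 29 elastic fibre and microfibril genes, and it fell. Adamtsl2 (chromosome 2, 27079379 to 27108981) encodes a secreted glycoprotein that binds fibrillin-1. Its levels were 29.6, 33.4, 40.3, 40.5 and 30.8 CPM in AGT-ASO libraries 14, 15, 18, 19 and 20, against 44.9, 59.0, 73.2, 58.2 and 66.6 CPM in Control-ASO libraries 8, 12, 13, 16 and 17. All AGT-ASO libraries lay below all Control-ASO libraries (mean 34.9 ± 5.17 CPM with AGT-ASO, against 60.4 ± 10.6 CPM with Control-ASO; log2 fold change -0.79 ± 0.13 SE, edgeR adjusted p = 0.038; 0.38 with the heart muscle covariate). With Adamtsl2 included, 6 of the list were lower and 1 higher at unadjusted p under 0.05, the median was -0.05, and DESeq2 called 2 lower. The median was -0.22 with the heart muscle covariate, with 8 lower and none higher. It was -0.09 without AGT-ASO library 14 and -0.03 without Control-ASO library 16. Ltbp2, a microfibril-associated protein, averaged 152 ± 9.85 CPM with AGT-ASO, against 186 ± 17.9 CPM with Control-ASO (log2 fold change -0.29 ± 0.07 SE, edgeR adjusted p = 0.15). Bgn, the proteoglycan biglycan, averaged 6793 ± 494 CPM with AGT-ASO, against 8170 ± 910 CPM with Control-ASO (log2 fold change -0.27 ± 0.10 SE, edgeR adjusted p = 0.29). Fbn2, the second fibrillin gene, stood at 0.495 ± 0.190 CPM with AGT-ASO, against 1.11 ± 0.449 CPM with Control-ASO (log2 fold change -1.16 ± 0.42 SE, edgeR adjusted p = 0.28).

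TGF-beta, which microfibrils hold in latent form, was covered by a pair of lists without an edgeR call. Of 26 TGF-beta target genes, 19 had a negative log2 fold change, with a median of -0.15; 4 were lower and 1 higher at unadjusted p under 0.05, and DESeq2 called 1 lower. Their score was 7.85 to 7.95 in AGT-ASO libraries and 8.02 to 8.22 in Control-ASO libraries. Ldlrad4, an inhibitor of TGF-beta receptor signalling, was the 1 on the higher side, at 77.3 ± 11.6 CPM with AGT-ASO, against 59.3 ± 7.53 CPM with Control-ASO (log2 fold change 0.38 ± 0.11 SE, edgeR adjusted p = 0.17). Sphk1, sphingosine kinase, averaged 14.2 ± 1.43 CPM with AGT-ASO, against 18.7 ± 2.997 CPM with Control-ASO (log2 fold change -0.40 ± 0.12 SE, edgeR adjusted p = 0.21). Of 28 ligands, receptors and regulators, 21 had a negative log2 fold change, with a median of -0.07; 4 were lower and none higher at unadjusted p under 0.05, and DESeq2 called 2 lower. Gdf10, a TGF-beta family ligand, averaged 149 ± 24.8 CPM with AGT-ASO, against 213 ± 28.9 CPM with Control-ASO (log2 fold change -0.51 ± 0.12 SE, edgeR adjusted p = 0.12). Smad2, a TGF-beta signal transducer, had a log2 fold change of -0.22 ± 0.08 SE (edgeR adjusted p = 0.28), and Inhba, which encodes an activin subunit, one of -0.15 ± 0.07 SE (edgeR adjusted p = 0.38). The median of the targets was -0.23 with the heart muscle covariate, with 12 lower and 3 higher at unadjusted p under 0.05, and that of the ligands, receptors and regulators was -0.07, with 9 lower and 1 higher. Without Control-ASO library 8 the median of the ligands, receptors and regulators was -0.04, and 7 of the targets were lower at unadjusted p under 0.05 without Control-ASO library 8 or 13.

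The remaining 5 called genes have no list in common. Cp (chromosome 3, 19957054 to 20009145) encodes ceruloplasmin, a copper protein that oxidises iron. It stood at 108, 105, 93.1, 105 and 82.2 CPM in AGT-ASO libraries 14, 15, 18, 19 and 20, against 127, 143, 164, 136 and 142 CPM in Control-ASO libraries 8, 12, 13, 16 and 17 (log2 fold change -0.53 ± 0.08 SE, edgeR adjusted p = 0.038). The highest AGT-ASO library was thus below the lowest Control-ASO library. Tspan9 (chromosome 6, 127961396 to 128143594), a tetraspanin membrane protein, stood at 43.5, 47.7, 39.4, 43.8 and 36.4 CPM in the AGT-ASO libraries, against 54.0, 56.8, 61.3, 63.1 and 59.5 CPM in the Control-ASO libraries (log2 fold change -0.48 ± 0.08 SE, edgeR adjusted p = 0.038). Dock9 (chromosome 14, 121542046 to 121797837), an activator of the small GTPase Cdc42, stood at 28.0, 33.1, 21.02, 35.7 and 26.5 CPM in the AGT-ASO libraries, against 45.2, 45.7, 51.9, 46.7 and 43.8 CPM in the Control-ASO libraries (log2 fold change -0.69 ± 0.12 SE, edgeR adjusted p = 0.038). In both genes the groups did not overlap, and with the heart muscle covariate the adjusted p was 0.45 for Tspan9, 0.35 for Dock9 and 0.38 for Cp.

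Sorbs2 (chromosome 8, 45507788 to 45827906), an adaptor protein of the actin cytoskeleton and of muscle Z-discs, stood at 248, 200.3, 229, 206 and 235 CPM in AGT-ASO libraries 14, 15, 18, 19 and 20, against 296, 286, 297, 325 and 286 CPM in Control-ASO libraries 8, 12, 13, 16 and 17. It fell by 0.41 ± 0.07 on the log2 scale (SE; edgeR adjusted p = 0.044, and 0.13 with the heart muscle covariate). Gm830, a gene model on chromosome 4 (95464724 to 95487394), lies outside the rule for naming genes and was chosen after its values were seen. It stood at 43.9, 60.5, 50.9, 49.0 and 51.2 CPM in the AGT-ASO libraries, against 37.7, 31.7, 26.04, 25.8 and 34.0 CPM in the Control-ASO libraries. Here every AGT-ASO library was higher (log2 fold change 0.72 ± 0.11 SE, edgeR adjusted p = 0.038; 0.20 with the heart muscle covariate).

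Promoter sequence was read for the called genes, since they differed together between the treatments; RefSeq (GRCm38.p6) gave 18 windows of 250 bases before a transcription start for 9 of the 10. The core of the hypoxia-inducible factor site, ACGTG, on either strand, was in 2 of the 18 windows and in 16.6% of 32817 windows of all genes. The AP-1 site TGACTCA, a target of ERK-induced Fos and Jun, on either strand, was in 0 of the 18 and in 4.5% of all windows. So few windows cannot show a difference from such shares, and Spry4 was not among the genes read. A match describes letters only. The window of Trem2, the largest rise (chr17:48346151-48346400, + strand), holds neither motif, nor does that of the first Vegfa start (chr17:46032378-46032627, - strand). The window of a second Vegfa start (chr17:46025164-46025413, - strand) holds ACGTG once, as its reverse complement in capitals. This second window lies inside the span of the Vegfa gene given above, downstream of the first start, so its match is within the gene and not ahead of it.
Trem2: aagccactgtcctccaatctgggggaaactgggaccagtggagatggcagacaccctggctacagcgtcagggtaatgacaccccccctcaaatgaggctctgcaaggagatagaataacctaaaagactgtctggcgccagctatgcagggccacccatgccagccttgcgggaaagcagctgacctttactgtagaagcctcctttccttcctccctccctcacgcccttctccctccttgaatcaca
Vegfa: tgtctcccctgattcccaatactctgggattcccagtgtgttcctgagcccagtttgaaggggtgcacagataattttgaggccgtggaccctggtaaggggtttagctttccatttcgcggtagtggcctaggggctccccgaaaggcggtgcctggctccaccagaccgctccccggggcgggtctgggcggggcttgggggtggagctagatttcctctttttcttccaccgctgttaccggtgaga
Vegfa, second start: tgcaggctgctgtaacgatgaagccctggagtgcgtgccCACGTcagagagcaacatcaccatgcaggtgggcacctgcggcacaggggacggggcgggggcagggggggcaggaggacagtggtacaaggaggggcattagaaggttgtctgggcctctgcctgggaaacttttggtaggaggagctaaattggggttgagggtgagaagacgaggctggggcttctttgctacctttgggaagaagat

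Genes of smooth muscle that has left its contractile state leaned lower with AGT-ASO. Of 29 tested genes of modulated smooth muscle, edgeR called none, 28 had a negative log2 fold change and the median was -0.29; 9 were lower and 1 higher at unadjusted p under 0.05, and DESeq2 called 5 lower and 1 higher. The score was 5.96 to 6.40 in AGT-ASO libraries and 6.41 to 6.76 in Control-ASO libraries. Acan, the proteoglycan aggrecan, stood at 88.6, 103, 98.5, 110 and 147 CPM in AGT-ASO libraries 14, 15, 18, 19 and 20, against 148, 199, 164, 132 and 163 CPM in the Control-ASO libraries (log2 fold change -0.56 ± 0.14 SE, edgeR adjusted p = 0.14). Only AGT-ASO library 20 reached into the Control-ASO range. Vcam1, an adhesion molecule, averaged 204 ± 35.8 CPM with AGT-ASO, against 289 ± 42.5 CPM with Control-ASO (log2 fold change -0.50 ± 0.13 SE, edgeR adjusted p = 0.15). Bmp2, a bone morphogenetic protein, averaged 22.5 ± 3.04 CPM with AGT-ASO, against 38.3 ± 10.5 CPM with Control-ASO, with no overlap (log2 fold change -0.77 ± 0.16 SE, edgeR adjusted p = 0.10). Lgals3, the galectin of macrophages and modulated smooth muscle, was the exception on the higher side, at 39.96 ± 5.34 CPM with AGT-ASO, against 26.6 ± 5.26 CPM with Control-ASO, also with no overlap (log2 fold change 0.59 ± 0.13 SE, edgeR adjusted p = 0.10). With the heart muscle covariate 18 of the 29 were negative and the median was -0.12, with 7 lower and 7 higher at unadjusted p under 0.05. The endothelial, white adipocyte, mesothelial and Schwann cell and melanocyte markers given above leaned the same way, with medians of -0.39, -0.64, -0.25 and -0.50.

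Contractile smooth muscle genes gave no edgeR call among 40 tested, with 29 positive and 11 negative log2 fold changes, a median of 0.10, and 5 higher and 2 lower at unadjusted p under 0.05; DESeq2 called 1 in each direction. The sign of the median turned with the heart muscle covariate, to -0.09, and it was 0.17 without Control-ASO library 8, where 3 genes were called higher, and 0.06 without Control-ASO library 13. Synpo2, an actin-binding protein of smooth muscle, averaged 899 ± 66.0 CPM with AGT-ASO, against 715 ± 102 CPM with Control-ASO (log2 fold change 0.33 ± 0.09 SE, edgeR adjusted p = 0.18). Ldb3 and Pln, which heart muscle also expresses strongly, lay on the lower side, with log2 fold changes of -0.23 ± 0.06 SE and -1.10 ± 0.38 SE (edgeR adjusted p = 0.16 and 0.30).

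The heart muscle list, made of genes of the tissue that adjoins the ascending aorta, had 34 negative and 1 positive log2 fold changes among 35 tested, with a median of -1.49. edgeR called none, and DESeq2 called 10 lower, beside 170 lower of all 14981 genes. At unadjusted p under 0.05, 27 were lower and 1 higher. Smpx, a small muscle protein, averaged 0.923 ± 0.455 CPM with AGT-ASO, against 3.49 ± 1.47 CPM with Control-ASO (log2 fold change -1.91 ± 0.38 SE, edgeR adjusted p = 0.075). Myl7, the atrial myosin light chain, stood at 9.61, 14.6, 7.37, 11.2 and 7.03 CPM in AGT-ASO libraries 14, 15, 18, 19 and 20, against 24.6, 12.8, 22.9, 42.3 and 38.9 CPM in Control-ASO libraries 8, 12, 13, 16 and 17 (log2 fold change -1.51 ± 0.34 SE, edgeR adjusted p = 0.15). Cox8b, a cytochrome oxidase subunit of heart and brown fat, averaged 1.42 ± 0.746 CPM with AGT-ASO, against 4.57 ± 2.22 CPM with Control-ASO (log2 fold change -1.66 ± 0.40 SE, edgeR adjusted p = 0.13). The heart muscle score was 3.63, 4.15, 3.41, 3.53 and 2.66 in AGT-ASO libraries 14, 15, 18, 19 and 20. It was 3.92 to 5.22 in Control-ASO libraries, and only AGT-ASO library 15 lay within that range. The covariate fit therefore cannot fully separate heart tissue content from treatment. The part of heart tissue content in the other differences was not tested in any other way.

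**Figure D4:**
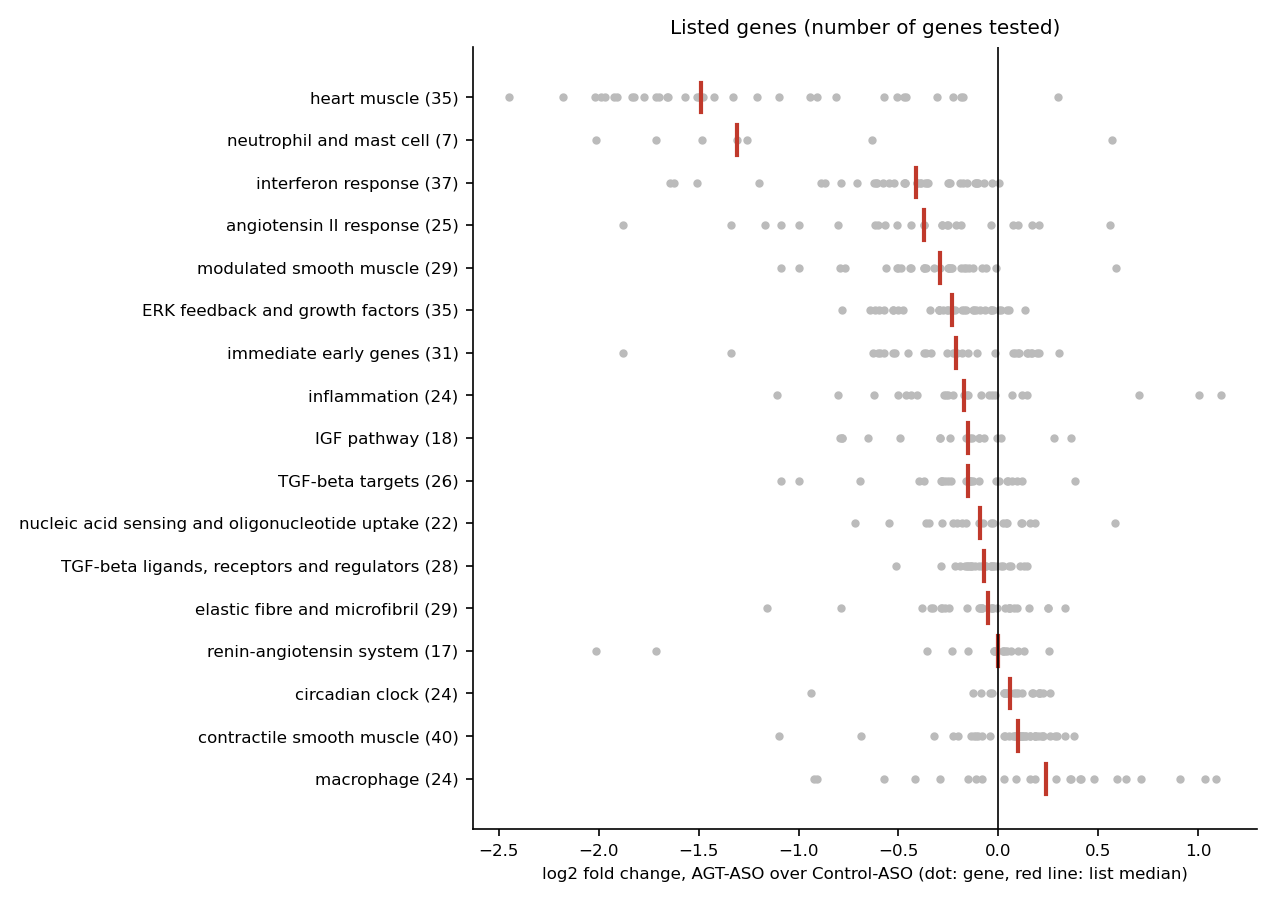
The log2 fold change of AGT-ASO over Control-ASO for each tested gene (grey dots) of 17 lists, with the list's median in red and the number of genes in brackets. The heart muscle list has the lowest median, -1.49, and the macrophage list the highest, 0.24.

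Inflammation and nucleic acid sensing were examined because an oligonucleotide was given to both groups. Of 37 interferon response genes, 36 had a negative log2 fold change and the median was -0.41; edgeR and DESeq2 called none, and 5 were lower and none higher at unadjusted p under 0.05. Trim30a, an interferon-induced protein, averaged 6.07 ± 1.30 CPM with AGT-ASO, against 9.92 ± 2.98 CPM with Control-ASO (log2 fold change -0.71 ± 0.21 SE, edgeR adjusted p = 0.20). Parp14, Ifih1, a sensor of viral RNA, and Oas2, all interferon-induced, had log2 fold changes of -0.37 ± 0.12, -0.39 ± 0.16 and -0.79 ± 0.34 SE (edgeR adjusted p = 0.24, 0.31 and 0.35). Without Control-ASO library 16 alone the median of the list was -0.13, with 29 of 36 genes negative and 2 lower at unadjusted p under 0.05. The median was -0.02 with the heart muscle covariate, with 19 of 37 negative and none past that p. Of 22 genes for nucleic acid sensing and oligonucleotide uptake, edgeR and DESeq2 called none, 5 were lower and 1 higher at unadjusted p under 0.05, and the median was -0.09. Myd88, the adaptor of most Toll-like receptors, averaged 18.3 ± 1.36 CPM with AGT-ASO, against 22.3 ± 2.19 CPM with Control-ASO (log2 fold change -0.28 ± 0.09 SE, edgeR adjusted p = 0.24). Tlr3, a receptor for double-stranded RNA, Tmem173, the STING adaptor of DNA sensing, and Traf6, a ligase downstream of Toll-like receptors, had log2 fold changes of -0.36 ± 0.13, -0.55 ± 0.23 and -0.23 ± 0.10 SE (edgeR adjusted p = 0.28, 0.34 and 0.38). Of the 22 genes, 11 were negative with the heart muscle covariate, with 1 lower and 3 higher at unadjusted p under 0.05. Of 24 inflammation genes edgeR called none and DESeq2 called 2 lower, with 5 lower and 1 higher at unadjusted p under 0.05. Osmr, the receptor of oncostatin M, stood at 64.0, 55.6, 59.0, 56.8 and 52.8 CPM in AGT-ASO libraries 14, 15, 18, 19 and 20, against 65.2, 67.8, 93.0, 85.7 and 70.7 CPM in the Control-ASO libraries, with no overlap (log2 fold change -0.41 ± 0.10 SE, edgeR adjusted p = 0.11). Ccl8, a chemokine made by macrophages, was the 1 on the higher side, at 4.52, 1.98, 2.84, 3.58 and 1.18 CPM in the AGT-ASO libraries, against 1.74, 0.903, 1.42, 1.11 and 1.36 CPM in the Control-ASO libraries, in the same order (log2 fold change 1.11 ± 0.35 SE, edgeR adjusted p = 0.21). Of the AGT-ASO libraries, only library 20 lay within the Control-ASO range of Ccl8. Cxcl1, a neutrophil chemokine, averaged 0.546 ± 0.186 CPM with AGT-ASO, against 1.19 ± 0.591 CPM with Control-ASO (log2 fold change -1.11 ± 0.47 SE, edgeR adjusted p = 0.34). The direction of the inflammation list turned with the heart muscle covariate: 18 of 24 genes were negative without it, with a median of -0.17, and 15 were positive with it, with a median of 0.11. With 1 library left out the median ran from -0.33 without AGT-ASO library 14 to -0.09 without AGT-ASO library 20 or Control-ASO library 13.

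The genes that the mutation changes were then followed in the ASO libraries. In untreated ascending aorta, 185 of 15645 tested genes rose in mutant mice (1.18%) and 157 fell (1.00%), in a fit that shares no library with the ASO comparison. Of the 184 risers tested in the ASO libraries, 133 (72.3%) had a negative log2 fold change with AGT-ASO, against 51.5% of all tested genes, and their median was -0.12; 36 were lower and 5 higher at unadjusted p under 0.05. Of the 151 genes lower in mutant mice and tested, 90 (59.6%) had a positive log2 fold change with AGT-ASO, against 48.5% of all tested genes; 22 were higher and 6 lower at unadjusted p under 0.05. Only 3 genes were called in both comparisons. Sorbs2, at 252 ± 22.7 CPM in mutant and 168 ± 10.6 CPM in WT ascending aorta (SD, n = 4 each; log2 fold change 0.59, edgeR adjusted p = 0.0074), rose in mutant mice and fell with AGT-ASO. Gm830, at 45.7 ± 12.1 CPM in mutant and 77.5 ± 9.36 CPM in WT, fell in mutant mice (log2 fold change -0.76, edgeR adjusted p = 0.021) and rose with AGT-ASO. Dock9, at 60.3 ± 3.93 CPM in mutant and 78.0 ± 5.08 CPM in WT, fell in both (genotype log2 fold change -0.37, edgeR adjusted p = 0.047). The other called genes were not called by genotype. Trem2, Vegfa, Adamtsl2 and Mgl2 had the same sign in both comparisons, with genotype log2 fold changes of 0.86, -0.35, -0.46 and -0.01 (edgeR adjusted p = 0.051, 0.061, 0.40 and 0.99). Spry4, Cp and Tspan9 had opposite signs, with 0.51, 0.26 and 0.02 (edgeR adjusted p = 0.35, 0.27 and 0.96).

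Genes that rose at least 2-fold in mutant mice had mostly negative log2 fold changes with AGT-ASO, while those that fell at least 2-fold lay on both sides. Of 40 such genes tested in the ASO libraries, 37 (92.5%) had a negative log2 fold change with AGT-ASO and the median was -0.34; 11 were lower and 1 higher at unadjusted p under 0.05, and none was called by edgeR. Of 61 genes at least 2-fold lower in mutant mice, 35 (57.4%) had a positive log2 fold change with AGT-ASO, the median was 0.02, and 4 were higher and 3 lower at unadjusted p under 0.05. The score of the 40 higher genes was 3.49, 3.32, 3.70, 3.55 and 3.61 in AGT-ASO libraries 14, 15, 18, 19 and 20, against 4.16, 3.79, 3.86, 3.66 and 3.74 in Control-ASO libraries 8, 12, 13, 16 and 17. AGT-ASO library 18 lay above Control-ASO library 16, and the other AGT-ASO libraries lay below every Control-ASO library. In untreated ascending aorta, where libraries were scaled apart, the score was 4.32 ± 0.14 in mutant and 3.01 ± 0.08 in WT (SD, n = 4 each). Without Control-ASO library 8, which scored highest in its group, 31 of the 40 were negative with a median of -0.27; without libraries 8 and 16 together 32 were, and with the heart muscle covariate 36 were, with a median of -0.59.

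Igfbp2, an insulin-like growth factor binding protein, had the largest rise in mutant mice among these genes, at 638 ± 221 CPM in mutant and 93.2 ± 12.96 CPM in WT. In the ASO experiment it stood at 179, 137, 250.5, 203 and 263 CPM in AGT-ASO libraries 14, 15, 18, 19 and 20, against 455, 282, 449, 273 and 333 CPM in Control-ASO libraries 8, 12, 13, 16 and 17. The groups did not overlap, but the difference was not called (log2 fold change -0.79 ± 0.22 SE, edgeR adjusted p = 0.21). In the same pathway, 18 genes of which were tested with no edgeR call, DESeq2 called 2 lower; 3 were lower and 2 higher at unadjusted p under 0.05. Igfbp3, another binding protein, averaged 29.6 ± 6.20 CPM with AGT-ASO, against 51.1 ± 13.2 CPM with Control-ASO (log2 fold change -0.78 ± 0.22 SE, edgeR adjusted p = 0.21), and Htra3, a protease that cleaves such proteins, 234 ± 32.4 CPM with AGT-ASO, against 182 ± 40.3 CPM with Control-ASO (log2 fold change 0.36 ± 0.13 SE, edgeR adjusted p = 0.28). Acan and Sphk1, given above, also belong to the 40 genes. Lgals3, which was higher in mutant mice (38.2 ± 12.6 CPM, against 19.1 ± 1.22 CPM in WT), lay on the higher side with AGT-ASO too.

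**Figure D5:**
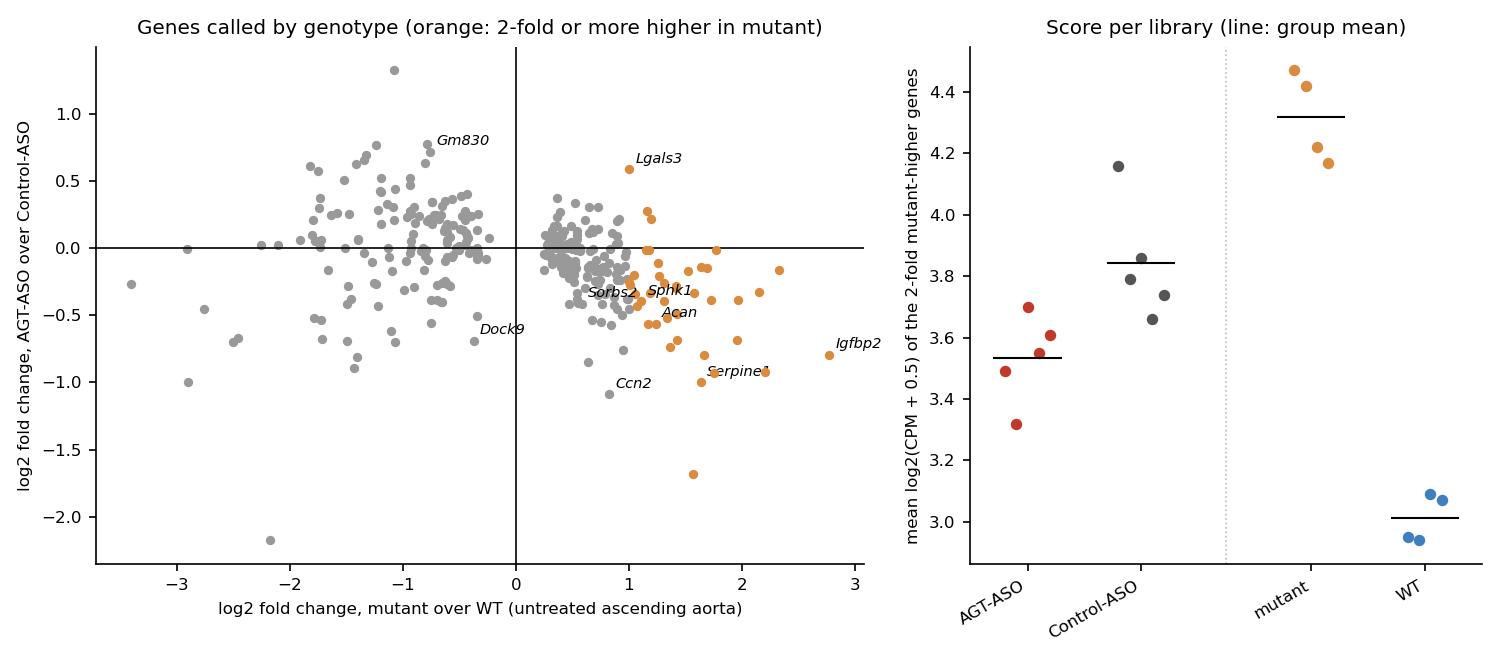
Left, the log2 fold change of mutant over WT (untreated) against that of AGT-ASO over Control-ASO for genes called by genotype, 1 dot per gene, orange for those at least 2-fold higher in mutant mice. Right, the mean log2(CPM + 0.5) of the 40 tested orange genes in each library with group means; AGT-ASO libraries score 3.32 to 3.70 and Control-ASO libraries 3.66 to 4.16.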

How the data were processed

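Each library has 1 deposited table of counts by Ensembl gene identifier; all values are whole numbers and were not normalized. The tools fastp and STAR 2.6.1d and the build mm10 are listed in the submitters' processing notes; how genes were counted, on which strand and with which annotation is not given in the sources used here, so reads of overlapping genes on opposite strands cannot be told apart. Per the labels' protocols, 1 µg of total RNA went into each library. Names and coordinates came from GENCODE M21 on the same build (GRCm38), which named 99.93% of 54532 identifiers.

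The 10 ASO libraries were fitted alone with the edgeR 4.0.16 quasi-likelihood F test (R 4.3.3; TMM factors, filterByExpr, robust), leaving 8 degrees of freedom (biological coefficient of variation 17.1%); p-values are two-sided and Benjamini-Hochberg adjusted over all genes, with a threshold of 0.05. The 16 untreated libraries were fitted apart in the same way. CPM values divide counts by the TMM-scaled total; their errors are SD. Single values were compared by exact permutation of 5 against 5 libraries, where the smallest p is 0.0079. DESeq2 1.42.0 and limma 3.58.1 were alternatives, and the fit was tested on simulated counts. The 49 gene lists (1287 entries, 1 unmatched) and the comparisons were chosen with earlier results of these data known. Some lists share genes, so they are not separate observations. Vcam1 is in the modulated smooth muscle and inflammation lists, and Lyve1 in the macrophage and endothelial lists. Named genes are Agt, Fbn1 and the receptor genes, up to 12 called genes per direction with non-overlapping groups and at least 1 CPM, excluding unnamed gene models, and up to 4 members per described list with the smallest p; Fgf7, Spry1 and Spred1 were named after their values were seen. A gene taken by this rule is not reported here. Replicate numbers are not shared between the ASO groups, so they pair no libraries.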

Additional observations from a re-analysis of the deposited data

Results flagged for a closer look

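In each group of 5 ASO libraries, a library was singled out when its distance to the nearest other library exceeded 0.71 of the group's range. Of 180 groups of values so examined (named genes, list scores and the mitochondrial share), 15 had such a library, where chance gives about 5%; the values are not independent of each other.

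Control-ASO library 8 accounted for 7 of them. It held 4070 CPM of Ccn2 (the other Control-ASO libraries 1024 to 1378), 16.85 CPM of Dusp5 (12.37 to 13.62), 253.7 CPM of Htra3 (160.7 to 168.9) and 889.5 CPM of Synpo2 (641.3 to 699.7). Its scores were 8.29 for heat shock (6.74 to 6.93), 5.75 for the angiotensin II response (4.77 to 5.03) and 6.06 for immediate early genes (5.20 to 5.42).

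AGT-ASO library 20 was low in macrophage score, at 3.33 (the other AGT-ASO libraries 3.96 to 4.22), in Cd68, at 9.56 CPM (18.21 to 21.35), and in the neutrophil and mast cell score, at -0.641 (-0.16 to -0.012). AGT-ASO library 15 was high in Agt, at 1.47 CPM (0.0961 to 0.208), and in Has2, at 1.69 CPM (0.546 to 0.583). AGT-ASO library 18 held 0.491 CPM of Agtr2 (0 to 0.0416), and library 14 held 102.4 CPM of Atp6ap2, which encodes the prorenin receptor (91.86 to 94.66). Control-ASO library 16 held 324.9 CPM of Sorbs2 (286.1 to 296.7).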

How the results depend on the processing

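The count of genes called with AGT-ASO, 10 in the reported fit, was 10 with relative log expression factors, with a filter of 1 CPM in 5 libraries and without mitochondrial and heart muscle genes. It was 22 with upper quartile factors, 289 with DESeq2 (119 higher, 170 lower), 43 with limma voom and quality weights, 147 with no filter, 63 with all 26 libraries in 1 fit and 5 with the heart muscle covariate. Limma voom and edgeR without robust estimates called 0 (1967 and 1976 genes at unadjusted p under 0.05; smallest adjusted p 0.063 and 0.056). Leaving out 1 library gave 0 to 180, and leaving out Control-ASO libraries 8 and 16, chosen after seeing the data, gave 47. Each of the 10 genes lost its call in 10 to 13 of 22 alternatives, and none changed sign. Their groups did not overlap, so leaving out libraries could hardly change a sign.

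Genes called in both comparisons numbered 3, but 40 with DESeq2, 0 with the heart muscle covariate, 7 without libraries 8 and 16, and 0 to 19 with 1 library left out. The genotype count of 342 was 779 with DESeq2, 245 with the 8 ascending libraries alone and 163 to 347 with 1 library left out; with mouse number as a random replicate block it was 400. Of the 40 mutant-higher genes, 31 to 37 were negative with 1 library left out. The Agt difference ranged from -0.353 to -0.0101 CPM and the mitochondrial difference from -3.47 to -2.1 percentage points with 1 library left out. The causes of these shifts were not tested. Genes under about 1 CPM, Agt and the Agtr1b and Agtr2 receptors among them, rest on a few counts per library.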

Other observations

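Clock genes were mostly on the higher side with AGT-ASO, by small amounts. Of 24 tested, 19 had a positive log2 fold change with a median of 0.06, 6 were higher and 1 lower at unadjusted p under 0.05, edgeR called none and DESeq2 called 1 lower. Per1, a repressor of the clock, stood at 140, 159, 136, 137 and 148 CPM in AGT-ASO libraries 14, 15, 18, 19 and 20, against 123, 134, 126, 127 and 112 CPM in Control-ASO libraries 8, 12, 13, 16 and 17 (log2 fold change 0.21 ± 0.07 SE, edgeR adjusted p = 0.22). Hlf, a clock output factor, had a log2 fold change of 0.20 ± 0.07 SE (edgeR adjusted p = 0.23) and Bhlhe41 one of 0.22 ± 0.08 SE (edgeR adjusted p = 0.28). Nfil3, which opposes Hlf at shared sites, averaged 4.78 ± 0.524 CPM with AGT-ASO, against 9.14 ± 4.33 CPM with Control-ASO (log2 fold change -0.94 ± 0.25 SE, edgeR adjusted p = 0.16). With the heart muscle covariate 13 of the 24 were positive. The hour of collection is not given in the labels, and its part was not tested.

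Some genes lay further from the untreated libraries than the ASO groups lay from each other. Tspan9, which was called, and Lyve1, which was not, are given here as examples. The same held for Mgl2, given above, and for the clock genes Hlf, Per1 and Bhlhe41. Mean Hlf was 141 (AGT-ASO), 122 (Control-ASO), 34.0 (untreated mutant ascending) and 43.4 CPM (untreated WT ascending). Vegfa did not show this: its untreated mutant mean, 29.4 CPM, lay between its ASO means of 23.7 and 34.2 CPM. How many genes show such a gap was not counted. Tspan9 averaged 42.2 ± 4.37 CPM with AGT-ASO, against 58.9 ± 3.59 CPM with Control-ASO, beside 116 ± 17.5 CPM in untreated mutant and 114 ± 3.99 CPM in untreated WT ascending aorta. Lyve1 stood at 10.1 ± 4.29 CPM with AGT-ASO, against 19.1 ± 4.997 CPM with Control-ASO, beside 71.9 ± 11.8 CPM in untreated mutant and 56.3 ± 12.1 CPM in untreated WT. The untreated libraries were scaled apart, and treatment with any oligonucleotide, age and experiment cannot be told apart here.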
